A study of Mus musculus with 11 samples.

Results

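Immediate early genes are switched on within minutes of a stimulus, without new protein synthesis, and 10 of them were followed here in cells isolated from perigonadal white adipose tissue (pgWAT). The 10 were Fos, Fosb, Jun, Junb, Jund, Egr1, Egr2, Atf3, Ier2 and Nr4a1. They were chosen by symbol, as the rows of the deposited count matrix that carry these names, and each matched 1 of 23507 gene rows. Their levels were compared by sorting plate, mouse, sex, cell class and adipose stem cell (ASC) subtype, and their co-variation was described within plates.

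Single cells came from male and female Pdgfrb-eGFP mice aged 12 to 20 weeks. In this reporter strain, backcrossed to C57BL6/J, a bacterial artificial chromosome carrying the Pdgfrb promoter drives green fluorescent protein in perivascular and stromal cells, so the sort for reporter signal selected such cells. All mice carried the reporter, and sex was the labelled group. The stromal vascular fraction was obtained by shaking with collagenase at 37 °C for 30 min, CD45-negative cells were sorted into plates, and each well was sequenced by Smart-seq2, which covers whole transcripts and counts reads rather than tagged molecules. The table held 3261 cells on 11 plates, 1177 from 3 male mouse ids (1, 4 and 8) and 2084 from 4 female mouse ids (2, 3, 5 and 6/7). The id 6/7 pooled 2 animals and counted as 1 replicate. By their labels, plates 172, 131, 129 and 843 were sorted for PDGFRB (mice 1, 4, 3 and 5) and plate 42 for PDGFRB without CD31 (mouse 6/7). Plates 171 and 874 were sorted for CD31 (mice 1 and 2), and plates 344 and 43 for both kinds of cell (mice 8 and 6/7). From mouse 2, plate 875 held DPP4-negative and plate 709 DPP4-positive cells, DPP4 being a surface peptidase that marks 1 ASC subtype. No undissociated tissue was analysed here, so no level before isolation can be set beside these values.

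The members encode transcription factors or their regulators. FOS and FOSB pair with JUN, JUNB or JUND through leucine zippers to form the AP-1 factor, EGR1 and EGR2 are zinc finger factors, ATF3 is a stress-induced leucine zipper factor, NR4A1 is an orphan nuclear receptor and IER2 is a nuclear regulator of transcription. Many of these genes are held ready by serum response factor and by CREB, which bind CArG boxes and cyclic AMP response elements (CRE) and are activated by kinases of the MAPK and calcium pathways. Enzymatic digestion and sorting are known to induce them in many tissues, and they also respond to growth factors and mechanical stimuli in the living animal, so their RNA in an isolated cell can have either origin.

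Cells were grouped by clustering without the members and without the other early response, feedback, heat shock and secreted genes examined below. ASC-like cells, which carried Pdgfra, Col1a1, Col1a2, Dcn, Lum and Dpt, numbered 2248 (68.9%), and blood endothelial (EC)-like cells, which carried Pecam1, Cdh5, Tie1, Ptprb and Cldn5, numbered 558 (17.1%). Smaller classes were epithelial-like (19 cells), lymphatic EC-like (22), vascular smooth muscle (VSMC)-like (41), pericyte-like (60) and macrophage-like (137), and 176 cells were left unnamed. Plate 843, labelled for PDGFRB, held 46 EC-like and 61 macrophage-like cells beside 104 ASC-like cells. Its label therefore does not describe all of its cells, and it gave all EC-like cells of mouse 5. Reads in at least 3 markers of another class were present in 437 ASC-like cells (19.4%) and 386 EC-like cells (69.2%), and no doublet caller was run. Total reads per cell ranged from 149931 to 3548334 (median 629323). A pair of gene rows that collect ribosomal RNA reads (CT010467.1 and AY036118) took from 26.4% of the reads of ASC-like cells on plate 875 to 65.5% on plate 172, so levels are given as counts scaled to 1000000 reads of nuclear protein-coding genes per sum (CPM). Levels of different genes are compared only after division by the exon length in kb.

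Proximal promoters of the members are shown because the short elements named above were searched in them. RefSeq windows on GRCm38.p6, from 250 bases before to 50 bases after a gene start, were found for 8 of the 10 members. Egr1 and Ier2 had no window and were not searched. Of the windows found, 4 are printed here, all 5′ to 3′ on the strand of the gene. Capitals mark matches to the letters searched on both strands, and a match is a description of the letters, not evidence of binding. Fos is shown as the most abundant member (chr12:85473640-85473939, plus strand) and Junb as the member most correlated with Egr1 in single cells (chr8:84978699-84978998, minus strand). Nr4a1 is shown for having the most matches (chr15:101266596-101266895, plus strand), and the third of 5 Egr2 windows for holding both a CArG box and CRE cores (chr10:67537619-67537918, plus strand).
Fos: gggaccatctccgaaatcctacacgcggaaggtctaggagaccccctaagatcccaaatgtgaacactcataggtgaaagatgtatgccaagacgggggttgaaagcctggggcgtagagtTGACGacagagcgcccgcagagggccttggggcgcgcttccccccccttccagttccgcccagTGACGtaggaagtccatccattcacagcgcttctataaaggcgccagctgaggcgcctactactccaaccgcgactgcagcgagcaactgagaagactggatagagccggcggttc
Junb: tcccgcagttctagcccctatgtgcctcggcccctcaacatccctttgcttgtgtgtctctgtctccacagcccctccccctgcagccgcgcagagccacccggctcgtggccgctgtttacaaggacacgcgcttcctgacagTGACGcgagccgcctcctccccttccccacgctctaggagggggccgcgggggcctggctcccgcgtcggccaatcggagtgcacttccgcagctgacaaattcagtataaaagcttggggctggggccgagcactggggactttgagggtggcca
Nr4a1: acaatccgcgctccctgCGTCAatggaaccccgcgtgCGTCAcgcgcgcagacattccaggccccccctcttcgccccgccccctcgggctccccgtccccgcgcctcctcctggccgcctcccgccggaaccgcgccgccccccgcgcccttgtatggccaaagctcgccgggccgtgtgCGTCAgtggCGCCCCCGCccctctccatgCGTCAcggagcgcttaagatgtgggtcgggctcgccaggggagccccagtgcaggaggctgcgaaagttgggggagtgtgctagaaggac
Egr2: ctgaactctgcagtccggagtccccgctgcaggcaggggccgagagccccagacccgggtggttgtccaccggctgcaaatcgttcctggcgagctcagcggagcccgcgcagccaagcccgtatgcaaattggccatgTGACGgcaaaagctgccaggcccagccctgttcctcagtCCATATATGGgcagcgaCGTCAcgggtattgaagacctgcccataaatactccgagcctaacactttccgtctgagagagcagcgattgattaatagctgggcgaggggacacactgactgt

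The CRE core TGACG is part of the palindromic CRE TGACGTCA. It stood in windows of 6 members (Fos, Fosb, Junb, Egr2, Atf3 and Nr4a1) and in 20.8% of all 32817 windows. The former counts members, of which Egr2 had 5 windows, and the latter counts windows. The printed windows were 58.7% to 72.3% GC, against a median of 52.7% over all windows. Enrichment was not tested. Fos held 2 matches, Junb 1, Nr4a1 4 and the printed Egr2 window 2, read on the other strand as CGTCA where the capitals show those letters. The whole palindrome was in 1.79% of all windows and in none of the members'. A CArG box, in 1.63% of all windows, was found only in Egr2 windows among the 8 members searched, which left out Egr1 and Ier2. The EGR motif GCGNGGGCG was in the Fosb and Nr4a1 windows and in 5.56% of all windows, and the AP-1 motif TGANTCA was in 7.81% of all windows and in none of the members'. A missing match says only that these letters are not in this window. The windows span 300 bases and the genes' other control regions were not searched.

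In ASC-like cells the 10 members together took 2.34% ± 0.551 of the nuclear protein-coding reads (SD, n = 7 mouse ids). As shares of the members' reads, which also depend on transcript length and do not rank the genes, the AP-1 gene Fos held 33.4%, Egr1 23.8%, Nr4a1 12.1%, Junb 10.1% and Jun 9.68%, averaged over mouse ids. Of the FOS partners, Fos (ENSMUSG00000021250, chr12:85473890-85477273 on GRCm38, plus strand) had a level of 2711 CPM in the lowest mouse id, 8533 CPM in the median and 10725 CPM in the highest. Mouse 1 was the lowest and mouse 5 the next, and no other mouse id was below 8381 CPM. Fosb (ENSMUSG00000003545, chr7:19302696-19310051, minus strand) ranged from 292 CPM in mouse 5 through a median of 765 CPM to 1375 CPM in mouse 8. Sex did not order the FOS genes, since a male and a female mouse id were the lowest 2 for each.

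The JUN genes covered a wide range of levels. Jun (ENSMUSG00000052684, chr4:95049034-95052222, minus strand) had 1179 CPM in the lowest, 2281 CPM in the median and 3714 CPM in the highest mouse id. Junb (ENSMUSG00000052837, chr8:84974484-84978718, minus strand) had 1006, 2727 and 3756 CPM in the same order. Both were lowest in mouse 1 and highest in mouse 4, which are both male. Jund (ENSMUSG00000071076, chr8:70698949-70700616, plus strand), known as the constitutively expressed JUN gene, had 60.7, 145 and 171 CPM, with mouse 5 lowest and mouse 2 highest.

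The zinc finger gene Egr1 (ENSMUSG00000038418, chromosome 18) ranked the mice differently from Fos, from 2792 CPM in mouse 4 through a median of 5348 CPM to 9607 CPM in mouse 2. Mouse 1, the lowest for Fos, had 6617 CPM of Egr1, the second highest value. Egr2 (ENSMUSG00000037868, chr10:67535475-67542188, plus strand) had only 24.7 CPM in mouse 1 and between 72.3 and 176 CPM in the others. Atf3 (ENSMUSG00000026628, chr1:191170296-191218039, minus strand) varied most, from 95.8 CPM in mouse 1 through a median of 510 CPM to 1080 CPM in mouse 8, a coefficient of variation of 56.9%. Nr4a1 (ENSMUSG00000023034, chr15:101254269-101274795, plus strand) varied least, between 1979 and 3427 CPM with a coefficient of variation of 19.3%. Ier2 (ENSMUSG00000053560, chr8:84661331-84662852, minus strand) had 532 CPM in mouse 1 and up to 1714 CPM in mouse 3, with a median of 1090 CPM.

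**Figure D1:**
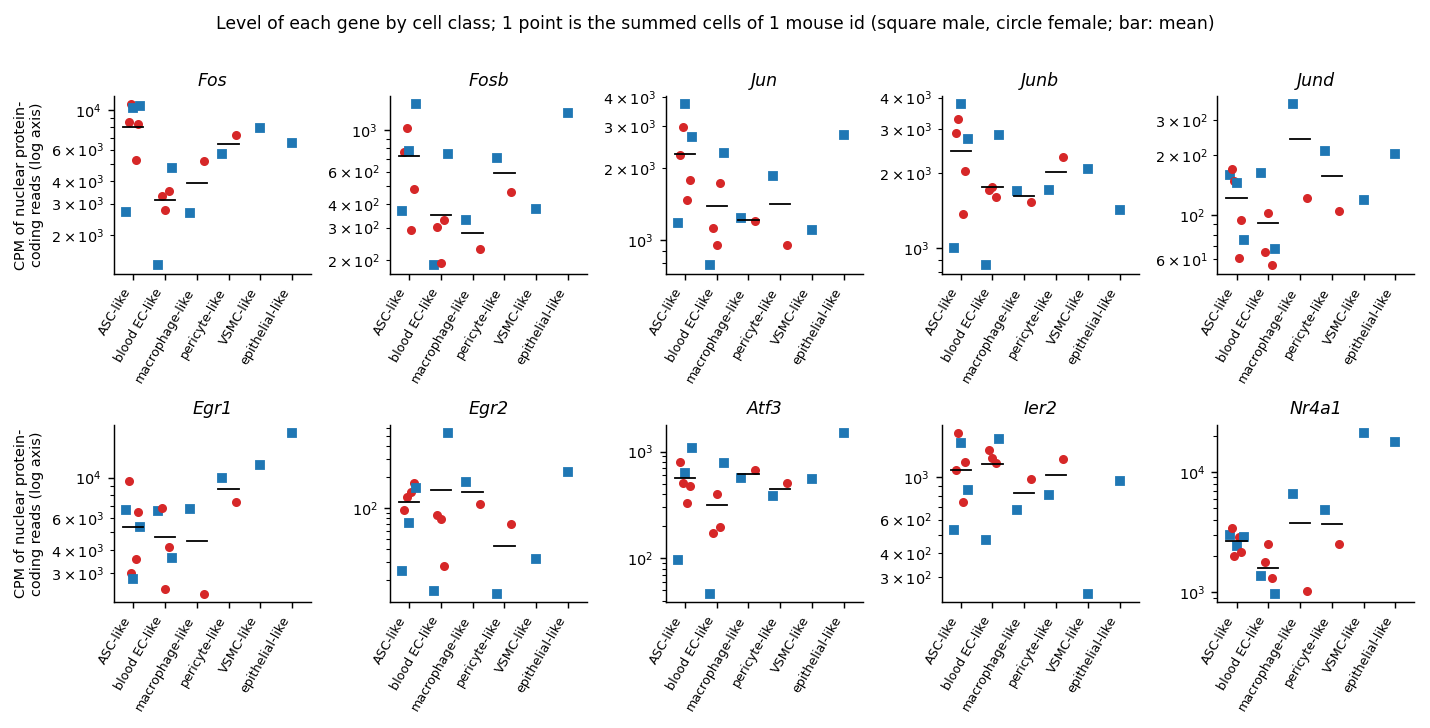
Levels of the 10 members in CPM of nuclear protein-coding reads (log axis), with 1 point per mouse id, for ASC-like cells (7 mouse ids) and EC-like cells (5 mouse ids). Fos in ASC-like cells sits between 2711 and 10725 CPM, and the EC-like points of Fos, Fosb, Jun, Egr1 and Nr4a1 each lie below the ASC-like point of the same mouse id.

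On the scale of CPM per kb of exon, which allows genes to be ranked, Fos led in ASC-like cells at 3422 ± 1283 (SD, n = 7). Egr1 (1192 ± 547), Junb (1060 ± 439), Nr4a1 (760 ± 147), Jun (722 ± 281) and Ier2 (718 ± 278) followed, and neighbours among these 5 differed by less than the larger of their SDs. Next came Atf3 (260 ± 148), Fosb (116 ± 61.7), Jund (73.1 ± 26.5) and Egr2 (33.5 ± 15.5). The steps larger than both SDs of the pair were those from Fos to Egr1, from Ier2 to Atf3 and from Jund to Egr2. Fos was above Egr1 in 6 of 7 mouse ids and Ier2 above Atf3 in 7 of 7.

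Reads of the leading members were present in nearly every ASC-like cell. After each cell was thinned to 50000 nuclear protein-coding reads, which left out 4 of the 2248, Fos was detected in 99.9% of cells, Egr1 in 99.8%, Jun in 99.3% and Junb in 98.5%. Nr4a1 reached 95.9%, Ier2 97.1%, Fosb 89.2%, Jund 80.7%, Atf3 77.3% and Egr2 38.2%. The share for Egr2 ranged from 15.8% to 47.5% between mouse ids, and without thinning it was 64.3%, so it depends on depth. The median ASC-like cell had reads of 9 members, and 557 of 2244 cells (24.8%) had reads of all 10. None was without a member.

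Between individual ASC-like cells the summed level of the members differed 8.29-fold from the 10th to the 90th percentile, from 0.553% to 4.58% of nuclear protein-coding reads, with a median of 2.23%. Sums under 0.2% were found in 63 ASC-like cells (2.8%). The plates differed mainly in 2 cases, plate 172 of male mouse 1 with a median of 0.983% and plate 843 of female mouse 5 with 1.13%. The other 7 plates had medians of 2.08% to 3.03%. Ribosomal RNA took 65.5% and 53.2% of the reads on these 2 low plates, 58.2% on plate 344, whose median was 2.29%, and 26.4% to 40.01% on the other 6. The part of the ribosomal share in the plate differences was not tested, and plate, mouse and isolation cannot be told apart where a mouse filled 1 plate.

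**Figure D2:**
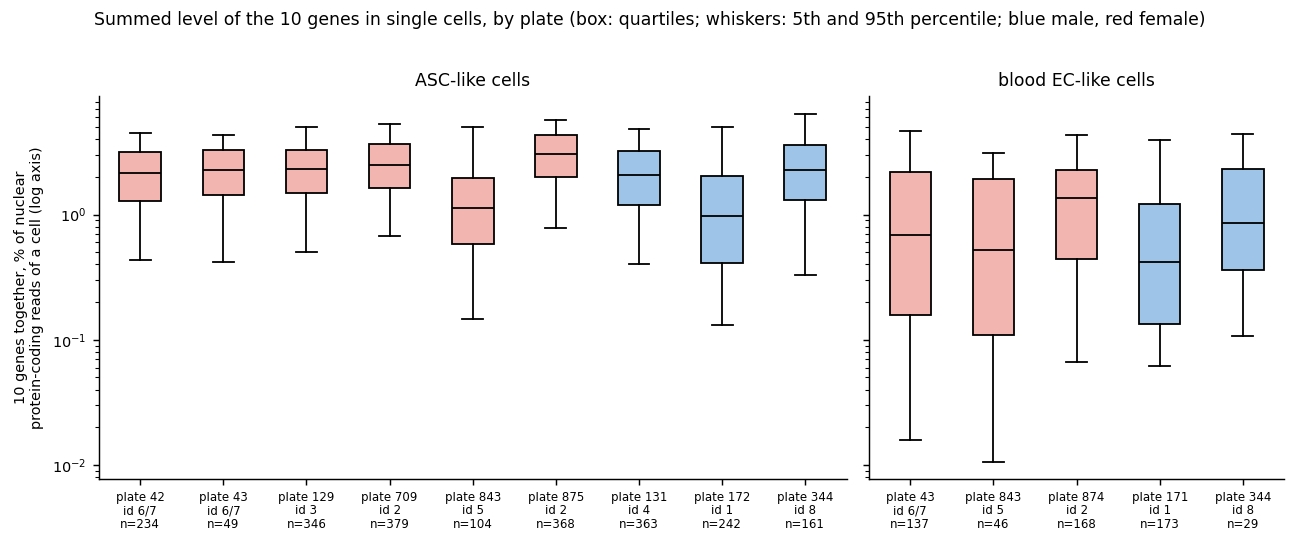
Summed share of the 10 members in nuclear protein-coding reads (percent), cell by cell, for each plate with ASC-like or EC-like cells. ASC-like medians lie between 0.983% on plate 172 and 3.03% on plate 875, and EC-like cells reach lower, with 24.9% of them under 0.2%.

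Position in the plate moved little with the sum of the members. In ASC-like cells, Spearman's rho with the well row lay between -0.0743 and 0.0573 and with the well column between -0.101 and 0.0913 on 8 plates, while plate 43, with 49 cells, had 0.271 and 0.154. The same sum had a rho of -0.213 to 0.188 with the number of nuclear protein-coding reads and of -0.35 to 0.0473 with the mitochondrial share. With the ribosomal RNA share it was -0.354 (plate 129) to 0.0426 on 8 plates, and 0.503 on plate 43. These are descriptions within plates, over cells that share their isolation and sequencing, and wells were not randomized as far as the sources used here state.

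A pair of plates with ASC-like cells was available from mouse 6/7 and from mouse 2, and the summed levels were close in the former. Mouse 6/7 had 23293 CPM of the summed members on plate 42 and 22947 CPM on plate 43, a ratio of 0.985. Mouse 2 had 31972 CPM on the DPP4-negative plate 875 and 26973 CPM on the DPP4-positive plate 709. That gap lay mainly in Fos, with 10020 CPM against 6828 CPM, Jun, with 2769 against 1722 CPM, and Fosb, with 1003 against 492.6 CPM. The AP-1 gene Junb, with 2893 against 2853 CPM, was alike on both plates. So were Egr1, with 9568 against 9652 CPM, and Nr4a1, with 3395 against 3465 CPM. With 1 plate of each kind there is no replicate of this contrast, and ribosomal RNA took 26.4% and 40.01% of their reads.

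Male and female mice were compared first, because the study set out to compare the sexes in these stem cells. None of the 10 members was called in ASC-like cells by edgeR's quasi-likelihood test on counts summed per mouse id (adjusted p below 0.05 and a fold above 2.6, Benjamini-Hochberg over all genes, 3 against 4), where 2.25% of 11821 genes tested were called. At an unadjusted p below 0.05 the count of members was also 0, against 19.5% of all genes tested. The likelihood ratio test of edgeR and DESeq2 called no member. Fosb had the largest difference, a log2 male-minus-female value of 0.76 (95% interval -0.50 to 2.02), with mean levels of 841 ± 506 CPM (SD) for the male and 641 ± 321 CPM for the female mouse ids. Fos averaged 7816 ± 4425 CPM over the male and 8222 ± 2253 CPM over the female mouse ids (SD), a fitted log2 difference of 0.29 (-0.88 to 1.46). The fitted value and the CPM differ in sign because the fit scales libraries by TMM over all genes, and with totals of protein-coding reads the Fos value was -0.07. The intervals are wide enough to hold a change of more than 2-fold for 9 of the 10 members, so equality of the sexes was not shown either. Male and female ASC-like cells fell into different clusters, so that clusters 4, 6, 9 and 12 held 757 of the 768 male cells and clusters 1, 2, 3, 5 and 7 held 1478 of the 1480 female cells.

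EC-like cells gave the same count with fewer mice. No member was called between 2 male and 3 female mouse ids, and 0.0494% of 8099 genes were called. An unadjusted p below 0.05 was reached by 0 members and by 7.54% of the genes. Egr2 had the largest fitted difference, 2.48 on the log2 scale (-0.17 to 5.13), and rested on mouse 8, with 540 CPM from 29 cells against 15.9 CPM in the other male, mouse 1, and 27.6, 79.4 and 86.5 CPM in the females. Without male mouse 1 the log2 differences were 3.42 for Egr2 and 1.82 for Fosb. That fit leaves mouse 8 as the only male, so the spread between males is not measured and its calls are not read. Clusters also split by mouse here, with 171 of the 176 EC-like cells of mouse 1 in cluster 8 and 374 of the 382 others in cluster 0. In simulated counts, 0% of 4-fold changes were recovered at this size, against 63% in the ASC-like sex comparison, where 9.72% of simulated calls were false. The simulations changed 200 genes, whereas 4 were called between sexes in EC-like and 266 in ASC-like cells. These shares therefore do not give the power of the sex tests, and missing calls do not show equal levels. No member passed the test of an interaction of sex with class or subtype, and the lowest edgeR adjusted p over these 30 tests was 0.49 (Egr1, ASC2-like against ASC1-like cells).

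**Figure D3:**
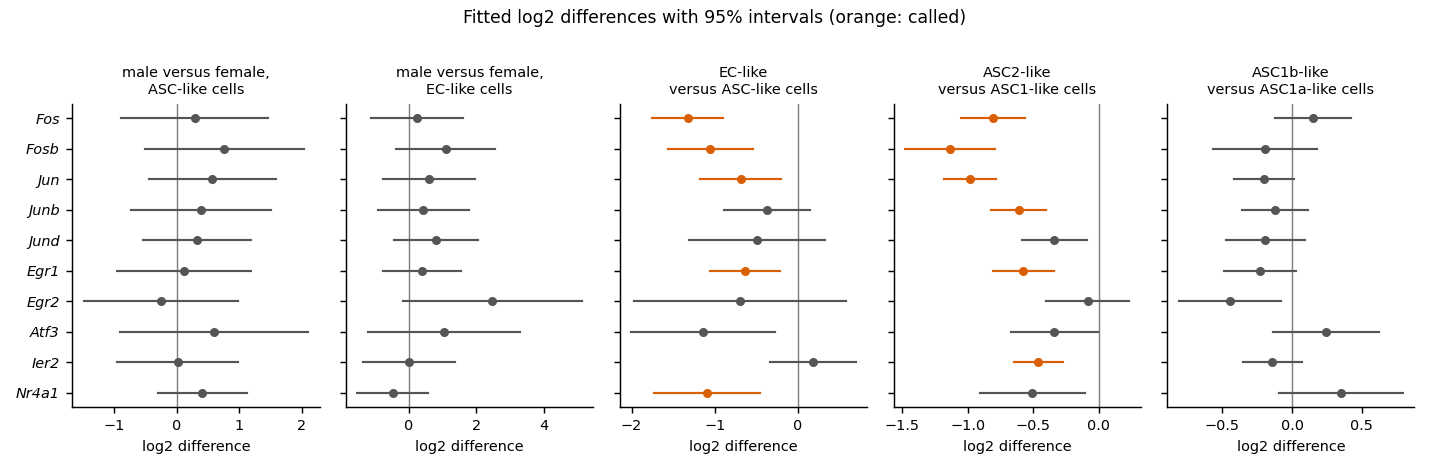
Fitted log2 differences of the 10 members with 95% intervals for the 5 comparisons (edgeR quasi-likelihood, counts summed per mouse id). Intervals of the sex comparisons cross 0 for every member, while the ASC2-like minus ASC1-like values of Jun, Fosb, Fos, Junb, Egr1 and Ier2 lie below 0 and are called.

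EC-like cells had lower levels of 5 of the 10 members than ASC-like cells of the same mice. These were Fos, Fosb, Jun, Egr1 and Nr4a1, each lower in 5 of 5 mouse ids and called by edgeR's quasi-likelihood test with the mouse as a block. In mice 1 and 2, EC-like cells lay almost wholly on plates 171 and 874, and ASC-like cells on other plates. Most ASC-like cells of mouse 6/7 were on plate 42, and its EC-like cells on plate 43. The mouse block therefore does not fully separate class from plate and sort in these mice. Of 12202 genes tested, 27.4% were called in either direction and 16.1% as lower in EC-like cells, and the log2 median of all genes was -0.20. In these sums, fewer cells with the RNA and less RNA per cell cannot be told apart.

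Fos had 1357, 3320, 2776, 3514 and 4739 CPM in EC-like cells of mice 1, 2, 5, 6/7 and 8, against 2711, 8533, 5248, 8381 and 10555 CPM in their ASC-like cells. Every EC-like value was between 0.389 and 0.529 of its ASC-like partner, although the groups overlap across mice. The log2 difference was -1.33 (SE 0.18, edgeR adjusted p = 0.00137), the most stable of the 5, called in 18 of 20 alternative analyses and without each mouse in turn. Fosb had 188, 302, 195, 331 and 746 CPM against 369, 765, 292, 483 and 1375 CPM, a log2 difference of -1.05 (SE 0.22, adjusted p = 0.00932). It was called in 16 of the 20 alternatives and also without each mouse in turn.

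The nuclear receptor Nr4a1 had 1368, 1774, 2528, 1302 and 966 CPM in EC-like cells, against 2997, 3427, 2848, 2139 and 2880 CPM in ASC-like cells (log2 -1.10, SE 0.27, edgeR adjusted p = 0.0206). Its EC-like values all lay below its ASC-like values except for mouse 5, which was above the 2139 CPM of ASC-like cells in mouse 6/7. Egr1 had 6580, 6807, 2439, 4183 and 3636 CPM against 6617, 9607, 3582, 6463 and 5348 CPM (log2 -0.64, SE 0.18, adjusted p = 0.0355), and the 2 classes were nearly equal in mouse 1. Jun had 781, 1128, 953, 1733 and 2321 CPM against 1179, 2281, 1470, 1789 and 2699 CPM (log2 -0.69, SE 0.21, adjusted p = 0.0445). These 3 calls were less firm: with 1 mouse left out, Nr4a1 was still called in 2 of 5 fits (without mouse 5 and without mouse 8), Egr1 in 1 (without mouse 1) and Jun in none.

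The other 5 members were not called. Atf3 had a log2 difference of -1.14 (edgeR adjusted p = 0.0569), Egr2 of -0.70 (adjusted p = 0.407), Jund of -0.49 (adjusted p = 0.358) and Junb of -0.37 (adjusted p = 0.272). Ier2 alone had a positive value, 0.18 (adjusted p = 0.614), with 471, 1391, 1265, 1187 and 1598 CPM in EC-like and 532, 1090, 740, 1198 and 860 CPM in ASC-like cells, higher in 3 of 5 mice. No member was called at a fold above 2.6, as 22.7% of all genes were. The median over the members was -0.69 against -0.20 over all genes. Where both classes lay on the same plate (plates 43, 344 and 843), with the plate as the block, only Fos was called (log2 -1.28, adjusted p = 0.0214). By CPM on these plates, Fos, Fosb, Egr1 and Nr4a1 were lower in EC-like cells on 3 of 3. Jun, Jund, Egr2 and Atf3 were lower on 2 of 3, and Junb and Ier2 were higher on 3 of 3.

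Cell by cell, EC-like cells were the more uneven class. Their summed members had a median of 0.749% of nuclear protein-coding reads, with 0.0698% at the 10th and 3.6% at the 90th percentile, a 51.6-fold spread, and 139 cells (24.9%) were under 0.2%. At 50000 thinned reads, 23 of 558 EC-like cells were left out as too shallow, and the median cell had reads of 7 members. All 10 were seen in 16 of 535 cells (2.99%). Egr1, in 97.4% of the cells, was detected more widely than Fos (90.8%), and Fosb, Jund, Atf3 and Egr2 were in 50.3%, 42.1%, 31.96% and 12.2%. EC-like cells had fewer genes detected (median 2949 to 4407 by plate) than ASC-like cells (4579 to 6493), and higher mitochondrial shares on plates with both classes. In EC-like cells the sum was positively correlated with the number of nuclear protein-coding reads (rho 0.0579 to 0.329 on 4 plates). The part of cell quality in the class difference was not tested. Without cells that carried markers of another class, Fos (log2 -1.57, adjusted p = 0.0179) and Nr4a1 (log2 -1.63, adjusted p = 0.00973) remained called.

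The rare classes came mostly from mouse 1, so their levels are descriptions. The 38 VSMC-like cells of mouse 1 had 21180 CPM of Nr4a1 and 11765 CPM of Egr1, and a sum of the members of 45425 CPM. Its 19 epithelial-like cells had 17787 CPM of Nr4a1, 17612 CPM of Egr1 and a sum of 50249 CPM. Both sums were well above the 15689 CPM of ASC-like cells of the same mouse. Macrophage-like cells summed to 20937 CPM in mouse 1 (76 cells) and 13358 CPM in mouse 5 (61 cells), and pericyte-like cells to 26134 CPM in mouse 1 (44 cells) and 22753 CPM in mouse 2 (13 cells).

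Within ASC-like cells, the DPP4-marked subtype stood apart. ASC-like cells were divided by their markers into ASC1a-like (Col15a1, G0s2, Cxcl14; 807 cells), ASC1b-like (Clec11a, Fmo2, F3; 668 cells) and ASC2-like cells (Dpp4, Cd55, Arl4d, Pi16; 773 cells), and 487 cells (21.7%) lay within 0.25 z-score units of another subtype. Expression of 6 of the 10 members was lower in ASC2-like than in ASC1-like cells of the same mice, namely Jun, Fosb, Fos, Junb, Egr1 and Ier2, by edgeR's quasi-likelihood test with the mouse as a block. Over 11147 genes tested, 10.9% were called in either direction and 5.49% as lower in ASC2-like cells. The members' median log2 difference was -0.54, against -0.01 for all genes. In single ASC-like cells the summed members had a mean rho of 0.0836 to 0.137 with the ASC1a markers. For the ASC1b markers it was 0.132 with F3, -0.00638 with Clec11a and -0.00755 with Fmo2. With the ASC2 markers it was -0.228 to -0.152. Whether the subtype markers are themselves early response genes was not tested, so the labels and the members may not be independent.

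Jun fell most clearly, by 0.98 on the log2 scale (SE 0.093, edgeR adjusted p = 1.36e-06). Its level in ASC2-like cells was 692 CPM in the lowest, 1323 CPM in the median and 2917 CPM in the highest of 7 mouse ids. Its ratio to the geometric mean of the ASC1a-like and ASC1b-like values ran from 0.364 to 0.721. Fosb fell by 1.14 (SE 0.16, adjusted p = 0.000124), with ratios of 0.216 to 0.753, and Fos by 0.81 (SE 0.12, adjusted p = 0.000145), with ratios of 0.383 to 0.881. For these 3 AP-1 genes the ASC2-like value was below both ASC1-like values in every mouse id. Junb fell by 0.61 (SE 0.10, adjusted p = 0.000431), with ratios of 0.474 to 1.02, and Egr1 by 0.58 (SE 0.11, adjusted p = 0.00169), with ratios of 0.485 to 0.885. Ier2 fell by 0.46 (SE 0.088, adjusted p = 0.00184), with ratios of 0.604 to 1.0. For Junb and Ier2 the ASC2-like value was below both ASC1-like values in 6 of 7 mouse ids, the exception being mouse 4.

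These 6 calls held without each mouse in turn and with the plate as a block. None of them passed a fold of 2.6, as 1.72% of all genes did among those lower, and none held without the mouse block, where differences between mice enter the error. Egr1 was also not called without cells that carried markers of another class (log2 -0.45, edgeR adjusted p = 0.063). The other 4 had log2 differences of -0.51 (Nr4a1, edgeR adjusted p = 0.111), -0.34 (Atf3, adjusted p = 0.212), -0.34 (Jund, adjusted p = 0.0805) and -0.08 (Egr2, adjusted p = 0.834). The sum of the members was lower in ASC2-like cells of 7 of 7 mouse ids, at 0.448 to 0.899 of the ASC1-like geometric mean. By cell, its median was 1.78% in ASC2-like, 2.58% in ASC1a-like and 2.48% in ASC1b-like cells. Ribosomal RNA took a median of 38.5% of reads in ASC2-like cells, against 32.8% and 33.2% in ASC1a-like and ASC1b-like cells, and was above both in 5 of 7 mouse ids. Depth was similar, with medians of 353916, 348016 and 359593 nuclear protein-coding reads, while the median mitochondrial share was 1.56%, 1.42% and 1.42%, and higher in ASC2-like cells than in both others in 6 of 7 mouse ids. The part of the ribosomal and mitochondrial shares was not tested. In mouse 2 the subtypes came from different sorts, since 67% of ASC-like cells on plate 709 but 1.36% on plate 875 were ASC2-like.

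**Figure D4:**
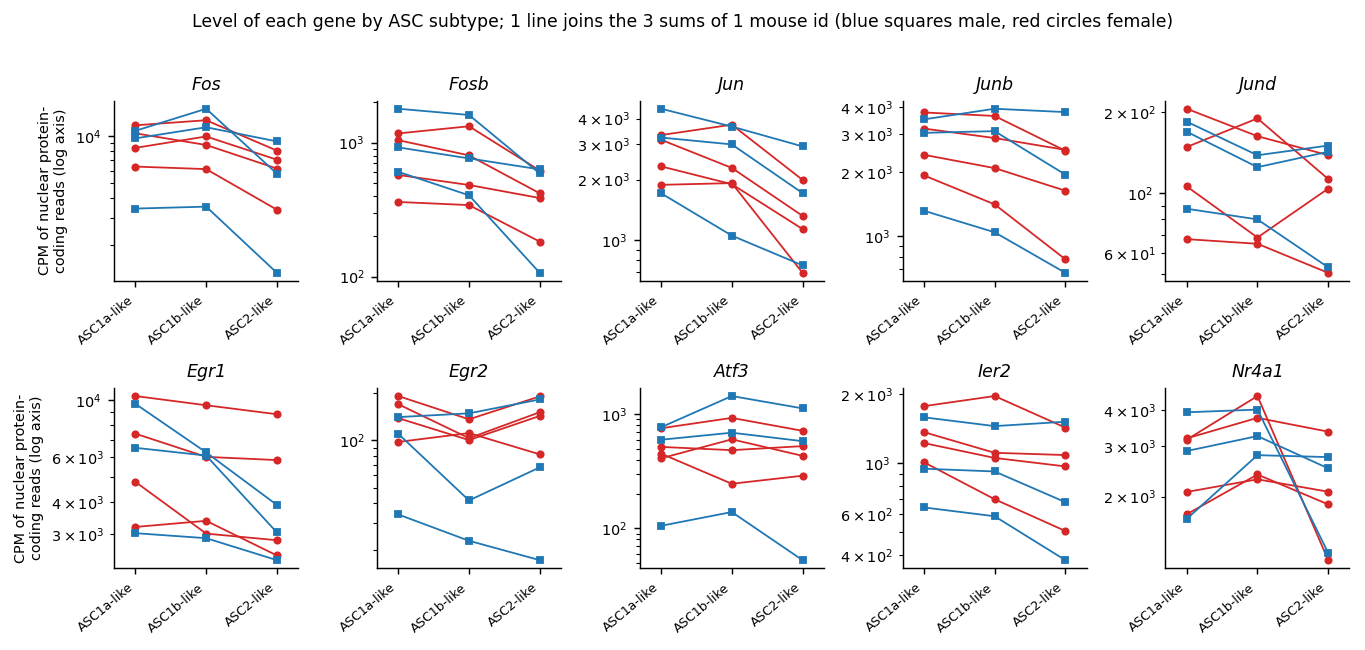
Levels of the members in CPM of nuclear protein-coding reads (log axis) in ASC1a-like, ASC1b-like and ASC2-like cells, with a line joining the values of each of 7 mouse ids. For Fos, Fosb and Jun the line ends at its lowest point in ASC2-like cells in 7 of 7 mouse ids, while Egr2 and Nr4a1 lines run in both directions from ASC1a-like to ASC2-like cells.

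ASC1a-like and ASC1b-like cells were compared in the same fit. No member was called by edgeR's quasi-likelihood test, where 1.22% of the 11147 genes were. An unadjusted p below 0.05 was reached by 11.6% of these genes and by 1 member. That was Egr2, with 126 ± 51.9 CPM in ASC1a-like and 94.9 ± 46.6 CPM in ASC1b-like cells (SD, n = 7 each, log2 -0.45, adjusted p = 0.282). Nr4a1 was higher in ASC1b-like cells of 7 of 7 mouse ids, at 1.02 to 1.67 times the ASC1a-like level, yet was not called (log2 0.35, 95% interval -0.10 to 0.80, adjusted p = 0.574). Likelihood ratio and DESeq2 fits also called no member.

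In individual ASC-like cells the members were correlated with each other to different degrees. Spearman's rho between members, computed within each of 9 plates at 50000 thinned reads and averaged, had a mean of 0.32 over the 45 pairs, and the plate means lay between 0.278 and 0.381. Junb with Egr1 had the highest value, 0.612, followed by Fos with Egr1 (0.609) and Fos with Fosb (0.588), and 16 pairs were above 0.4. Fos, Fosb, Jun, Junb and Egr1 formed the tightest group, with pair values of 0.398 to 0.612. Nr4a1 joined it most closely through Egr1 (0.519) and Junb (0.493). Jund and Egr2 had the lowest values, with 0.0493 for the pair itself and at most 0.301 (Jund with Fosb) and 0.269 (Egr2 with Nr4a1) for the rest. They also took the smallest shares of the members' reads in ASC-like cells, 0.541% and 0.497%. Jund was detected in 80.7% and Egr2 in 38.2% of the thinned cells. The part of low read counts in their low rho was not tested. In EC-like cells of 4 plates the mean was 0.337 (0.223 to 0.414 by plate), and Junb with Egr1 was again the highest pair at 0.661. These values describe cells that share plate and library, and carry no p-value.

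**Figure D5:**
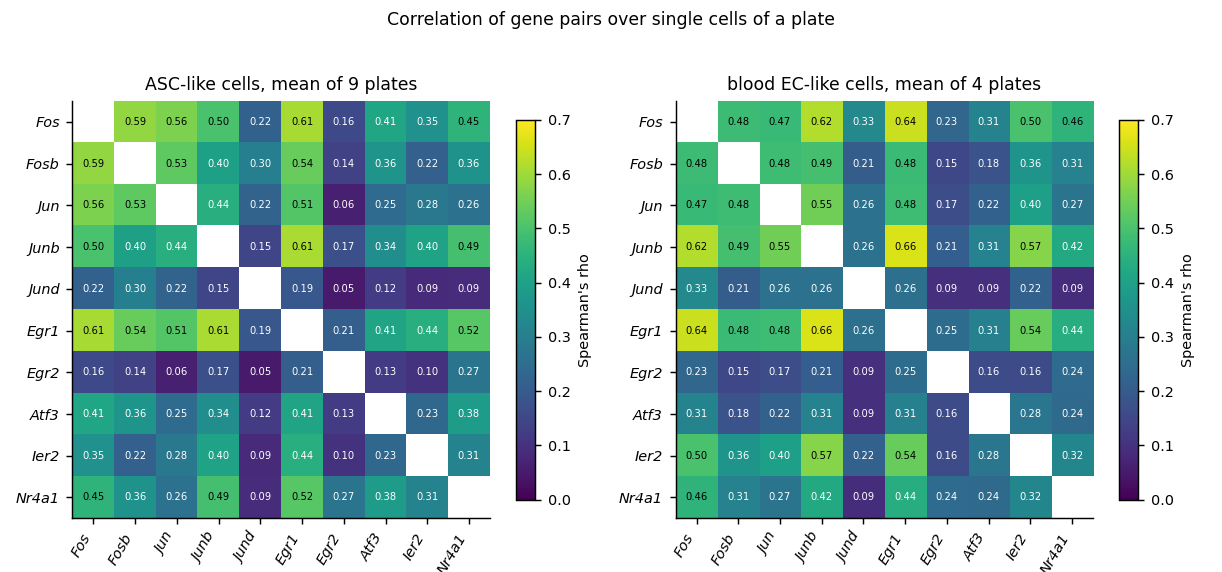
Mean within-plate Spearman correlation between each pair of members in ASC-like cells (9 plates) and EC-like cells (4 plates), after thinning to 50000 nuclear protein-coding reads. Pairs among Fos, Fosb, Jun, Junb and Egr1 in ASC-like cells reach 0.398 to 0.612, while Jund with Egr2 is at 0.0493.

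Genes outside the 10 were ranked by their correlation with the summed members over 8 plates with at least 50 ASC-like cells each. The sum is led by Egr1 and Fos, whose own rho with it was 0.851 and 0.848. Jund (0.24) and Egr2 (0.224) followed it least among the members, so likeness to the sum is not likeness to each member. Of 5866 genes with reads in at least 20% of cells, the median rho was -0.02 and 14 genes (0.239%) exceeded 0.3. The closest were Zfp36 (0.658), whose protein destabilizes AU-rich messages, Btg2 (0.579), an antiproliferative early gene, and Socs3 (0.502), an inhibitor of cytokine signalling. They were followed by the metallothionein Mt1 (0.389), Ppp1r15a (0.373), which restores translation under stress, and Cebpd (0.36), a leucine zipper factor. Errfi1 (0.352), a feedback inhibitor of the EGF receptor, Dusp1 (0.338), a MAPK phosphatase, the chaperone gene Hspa8 (0.336) and Nfkbiz (0.33), a nuclear IκB protein, completed the 10. The likeness is of levels within plates, with the subtypes pooled, over cells that share depth and library.

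By list, the other early response factors had a median rho of 0.192 (14 of 20 genes measured widely enough), early secreted factors 0.173 (8 of 12), feedback inhibitors 0.0943 (10 of 17), heat shock genes 0.0338 (11 of 11) and upstream kinases and factors -0.01 (11 of 16). The median of the upstream genes was thus near that of all genes.

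The same lists were counted in the subtype comparison by edgeR's quasi-likelihood test, where 10.9% of all genes were called and 5.49% were lower, and where 15 of the 71 list genes tested (21.1%) were called. Of the other early response factors, 3 of 19 tested were lower and 2 higher in ASC2-like than in ASC1-like cells, with Btg2 at -0.88, Cebpb at -1.04 and Cebpd at -0.77 on the log2 scale and the endothelial and quiescence factor Klf2 at 0.68. Of the feedback inhibitors, 4 of 14 were lower and 1 higher, the lower 4 being Spry4 (-2.23), Zfp36 (-1.07), Dusp6 (-1.20) and Socs3 (-0.85). Zfp36, Btg2 and Socs3 were also the 3 genes closest to the summed members in single cells. None of 16 upstream genes was called, and 3 of them had an unadjusted p below 0.05 (Mapk8, Rps6ka3 and Mapk9), as did 22.1% of all genes tested. Among 11 heat shock genes Hspb1 was higher (0.95) and Hspa1a lower (-0.46), and among 11 early secreted genes Thbs1 was lower (-1.36) while Ccl2 (1.57) and Ptgs2 (1.17) were higher. Early genes outside the 10 therefore moved in both directions.

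Between EC-like and ASC-like cells the lists were also mixed. Other early response factors were higher in EC-like cells for 3 and lower for 3 of 17 tested, feedback inhibitors for 3 and 2 of 15, upstream genes for 4 and 2 of 16, and heat shock genes for 1 and 0 of 11. Of the early secreted genes 8 of 11 were lower and 1 higher. Over all genes tested 27.4% were called, 16.1% as lower, and over the 5 lists together 27 of 70 (38.6%). Btg2, among the genes closest to the summed members in ASC-like cells, was higher in EC-like cells (log2 1.22, edgeR adjusted p = 0.00675), whereas Socs3 was lower (log2 -1.53, adjusted p = 0.0080). Between the sexes 1 of 71 list genes tested in ASC-like cells was called (1.41%, against 2.25% of all genes), Mrtfa, a coactivator of serum response factor (log2 male-minus-female 1.55, adjusted p = 0.0409).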

How the data were processed

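The authors deposited raw read counts per gene and cell, with 72 rows of ERCC spike-ins. Per the study's methods, reads were aligned with STAR to the mm10 genome and counted per gene with Salmon. The submitters' processing notes name these tools and bcl2fastq, without versions, and whether strand was used is not stated. Spike-ins were left out (1.98% of reads). Gene lengths and biotypes came from GENCODE vM21, where 46 rows had no match. The 10 members and all gene lists were chosen with earlier results of these data known.

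Cells were clustered with Seurat 5.3.0 in R 4.3.3 (3000 variable genes, 14 components, resolution 1.1), leaving out 70 rows of members and listed genes, and clusters were named from fixed markers. ASC subtype was the highest mean marker z-score within a mouse. Counts were summed per mouse id and class or subtype (at least 10 cells) and tested with edgeR 4.0.16 by the quasi-likelihood test after TMM scaling, on genes with more than 600 counts in at least 2 sums, with Benjamini-Hochberg adjustment over all genes. Comparisons of classes and subtypes had the mouse id as a block. Calls needed an adjusted p below 0.05 and, between sexes, a fold above 2.6. DESeq2 1.42.0, other scalings, filters and cell sets and leaving out each mouse id were alternatives. Correlations used cells thinned to 50000 nuclear protein-coding reads, which left out 42 cells, on plates with at least 40 cells. Tests were checked on simulated counts with 200 changed genes. Levels and correlations used Python 3.11.15 with scipy 1.17.1. Every member was named, as were up to 4 genes of a list with the smallest p and the 10 genes most correlated with the members. Mouse ids, not cells or plates, were the replicates. Without molecular identifiers, reads are not independent molecules, so depth describes sampling only.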

Additional observations from a re-analysis of the deposited data

Results flagged for a closer look

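In 2 of 44 groups of mouse ids (4.55%), 1 mouse id stood apart from the rest by Dixon's criterion, which chance meets in about 1 in 20 groups. Both involved male mouse 1. For Egr1, the log2 difference of EC-like minus ASC-like cells was -0.008115 in mouse 1, against -0.6278 to -0.4971 in the other 4 mouse ids. For Atf3, the log2 difference of ASC2-like minus ASC1-like cells was -1.201 in mouse 1, against -0.2252 to 0.09478 in the other 6. Neither was tested further.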

How the results depend on the processing

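Of 988 alternative values of the members' log2 differences, 872 kept direction and side of the threshold, 50 lost and 11 gained a call, and 55 changed sign, nearly all of them in the sex comparisons, where no member was called. The share of reads in the members (2.34% in the main analysis, 2.27% as a mean over cells) and the mean pair correlation in ASC-like cells (0.32, 0.305 to 0.324 otherwise) moved by less than the spread between mice or plates. The count of members called between EC-like and ASC-like cells was 5, and became 3 with library totals alone, 3 with classes from the markers of each cell, 3 with totals of nuclear protein-coding reads, 2 without cells with markers of another class, 0 with a fold over 2.6, 1 with no mouse block, 1 with sums per plate and the plate as block, 2 without mouse 6/7 and 2 to 4 without each mouse in turn. The count in ASC2-like against ASC1-like cells was 6, 6 to 7 without each mouse, 0 with a fold over 2.6 and 0 with no mouse block. Between sexes in EC-like cells it was 0, also in every alternative that kept both male mouse ids. The fit without male mouse 1 leaves a lone male that is assumed to vary like the females, and its calls are not read. The ASC1b-like against ASC1a-like and the ASC-like sex counts stayed at 0 throughout. No cause of these shifts was tested. Scaling mattered most between sexes: library totals moved the median log2 value of all genes in ASC-like cells from 0.04 to -0.595 and the share of calls that were higher in males from 69.5% to 28.2%, and totals of nuclear protein-coding reads, chosen after seeing the data, gave -0.26 and 49.5%. In EC-like cells the medians were -0.787 and -0.209. Between ASC2-like and ASC1-like cells the share of calls that were higher was 63.5% with protein-coding totals against 49.8%. Values that changed sign in ASC-like cells between sexes were, with library totals, Fos -0.32, Junb -0.15, Jund -0.29, Egr1 -0.71, Atf3 -0.096, Ier2 -0.50 and Nr4a1 -0.27; with protein-coding totals, Fos -0.073, Egr1 -0.20 and Ier2 -0.29; and for Ier2 -0.044 with thinned cells, -0.027 without cells with markers of another class and -0.026 without mouse 6/7. Leaving out mice gave ranges of -0.14 to 0.72 (Fos), -0.084 to 0.52 (Egr1), -1.25 to 0.20 (Egr2), -0.34 to 1.11 (Atf3) and -0.38 to 0.34 (Ier2). In EC-like cells they were, with library totals, Fos -0.55, Jun -0.23, Junb -0.33, Egr1 -0.46 and Ier2 -0.76; without cells with markers of another class, Fos -2.19, Fosb -0.36, Jun -0.19, Junb -1.68, Atf3 -6.35, Ier2 -1.73 and Nr4a1 0.016; with protein-coding totals, Fos -0.072 and Ier2 -0.31; with thinned cells, Atf3 -0.27 and Ier2 -0.45; with no filter, Ier2 -0.050; without mouse 6/7, Ier2 -0.11; and with classes from markers, Nr4a1 0.18. Leaving out mice gave -1.16 to 0.94 (Fos), -0.48 to 1.82 (Fosb), -0.62 to 1.26 (Jun), -0.92 to 1.11 (Junb), -1.95 to 3.42 (Egr2), -2.40 to 1.97 (Atf3) and -1.37 to 0.69 (Ier2). Between classes, Jund was 0.013 without cells with markers of another class and Egr2 0.29 with no mouse block. Between ASC2-like and ASC1-like cells, Egr2 was 0.21 and 0.053 under the same choices, and -0.14 to 0.037 without each mouse. Counts over all genes ranged from 92 to 593 (main 266) and from 0 to 701 (main 4) between sexes in ASC-like and EC-like cells, from 1354 to 4767 (main 3347) between classes, from 296 to 1606 (main 1220) for ASC2-like and from 6 to 403 (main 136) for ASC1b-like cells. Counting the adipocyte-led cluster with EC markers as EC-like was also chosen after seeing the data. No paired analysis was possible because male and female mice share no replicate numbers. Simulated 2-fold changes were recovered at 57% between ASC2-like and ASC1-like cells but at 1% between classes. The simulations changed 200 genes, whereas 1220 and 3347 were called in the data, which loosens the adjusted threshold there. These shares therefore do not give the power of the 2 comparisons, and between classes Jun was called at a fold of 1.61. Missing calls still do not show equal levels.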

Other observations

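A cluster of 124 cells, left unnamed, had all 5 EC markers, yet its leading genes by fold included Cfd, Car3 and Adig, which are typical of adipocytes. Its cells had the lowest sum of the members, with a median of 0.138% of nuclear protein-coding reads, and 54.8% of them were under 0.2%. Its median mitochondrial share was 4.95% and its median cell had 2500 genes. A further unnamed group of 52 cells with ASC markers had a median sum of 0.316% and a mitochondrial share of 7.2%. Both groups were in none of the comparisons above, apart from the alternative that counted the former as EC-like.

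Some genes ran opposite to the members in ASC-like cells. Over 8 plates, the most negative mean correlations with the summed members were those of Crip1 (-0.295), Fbn1 (-0.283), which encodes the microfibril protein fibrillin, S100a11 (-0.257), Igfbp6 (-0.255) and Fstl1 (-0.252). They were picked by rank after their values were seen, and over cells of the same plates and libraries. The subtypes were pooled, and the ASC2 markers Pi16 (-0.228), Dpp4 (-0.217), Cd55 (-0.183) and Arl4d (-0.152) were also negative. The part of the subtype difference in these values was not tested.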
